A study of Mus musculus with 24 samples.

Results

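The m6A reader genes examined here are 10 mouse genes for proteins that bind, or were proposed to bind, N6-methyladenosine (m6A) in messenger RNA: Ythdf1, Ythdf2, Ythdf3, Ythdc1, Ythdc2, Igf2bp2, Igf2bp3, Hnrnpa2b1, Hnrnpc and Fmr1. The list was set by protein function, without using measured values, and all 10 symbols matched 1 identifier each among the 54446 genes counted. The study sorted CD11b+ myeloid cells from MC38 tumors, a colon carcinoma line grown under the skin of young adult C57BL/6J mice, and measured poly(A) RNA before (Input) and after immunoprecipitation with an m6A antibody (IP). There were 4 conditions: WT Ctrl (Ythdf2 floxed mice without Cre, untreated tumors), WT IR (the same genotype, 1 local dose of 20 Gy, collected after 3 days), cKO Ctrl (Lyz Cre with Ythdf2 floxed, untreated) and cKO IR (Lyz Cre with Ythdf2 floxed, irradiated in the same way). The floxed Ythdf2 alleles were thus shared by all 4, and the Cre, driven from the lysozyme locus, acts in myeloid cells and not in the tumor. Each condition had 3 Input and 3 IP libraries, 24 in all. The methods describe the replicates as technical in one place and biological in another, with cells pooled from several mice for each, so SEs and p-values measure the spread between libraries.

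m6A is placed on nascent transcripts by a methyltransferase complex (the writers), can be removed by demethylases (the erasers) and is recognized by reader proteins that decide the fate of the marked transcript. The YTHDF proteins are cytoplasmic YTH-domain readers best known for sending m6A transcripts to decay. YTHDC1 is a nuclear YTH-domain reader linked to splicing and export, and YTHDC2 is a YTH-domain RNA helicase. IGF2BP proteins stabilize bound transcripts, the heterogeneous nuclear ribonucleoproteins HNRNPA2B1 and HNRNPC take part in splicing and in sensing RNA structure changed by m6A, and FMRP, the product of Fmr1, represses translation and binds m6A transcripts. In tumor myeloid cells YTHDF2 is the member the study deleted.

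Input libraries held 65.2M to 83.7M gene counts and IP libraries 68.8M to 86.4M (M, 1e6). The Inputs carried the myeloid markers: the summed level of 6 pan-myeloid genes was 3760 to 5150 counts per 1e6 gene counts (CPM), with none at 0, against 5.57 to 8.05 CPM for 6 tumor epithelial genes. All cell type marker levels are on this scale. CPM of Lyz2, the reader genes and the genes most like Ythdf2 instead use library sizes scaled by TMM in edgeR. Lyz2, the gene whose locus holds the Cre, was at 20060 to 21460 CPM in the WT Inputs and at 296.1 to 413.7 CPM in the Inputs labeled cKO. The IP libraries of Ctrl had the same order, at 15640 to 16500 CPM and 86.73 to 91.8 CPM. In the irradiated IP libraries the order was opposite, at 88.53 to 91.06 CPM in those labeled WT IR and 19520 to 19810 CPM in those labeled cKO IR. All 6 irradiated IP libraries therefore went against their genotype label by this gene, and they are named by label only. IP results of the Ctrl groups are also given from a fit without any irradiated library.

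The reader transcripts covered a wide range of levels. In the WT Ctrl Inputs, CPM per kb of exon was 92.6 ± 0.996 for Hnrnpa2b1, 54.9 ± 0.828 for Hnrnpc, 21.2 ± 0.27 for Ythdf2, 18.6 ± 0.626 for Ythdf3 and 16.7 ± 0.261 for Ythdf1 (SD, n = 3 each). It was 5.60 ± 0.219 for Ythdc1, 5.42 ± 0.115 for Igf2bp2, 5.14 ± 0.1 for Fmr1, 1.69 ± 0.0348 for Ythdc2 and 0.295 ± 0.0517 for Igf2bp3 (SD, n = 3 each). Hnrnpa2b1 exceeded 97.2% of the genes tested on this scale and Igf2bp3 22.4%. The libraries of neighbors in this order did not overlap except for Ythdc1 and Igf2bp2. The order depends on exon length, which was merged over all isoforms. In CPM, before division by length, Ythdc1 (13651 bases) was above Ythdf1 (3316 bases), at means of 76.5 and 55.3. In the Inputs labeled cKO, Ythdf2 kept the third place but at 38.9 ± 1.32 CPM per kb in Ctrl and 48.7 ± 1.59 in IR (SD, n = 3 each). Ythdf3 and Ythdf1 overlapped in cKO Ctrl, as did Igf2bp2 and Ythdc1 in both conditions labeled cKO.

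**Figure D1:**
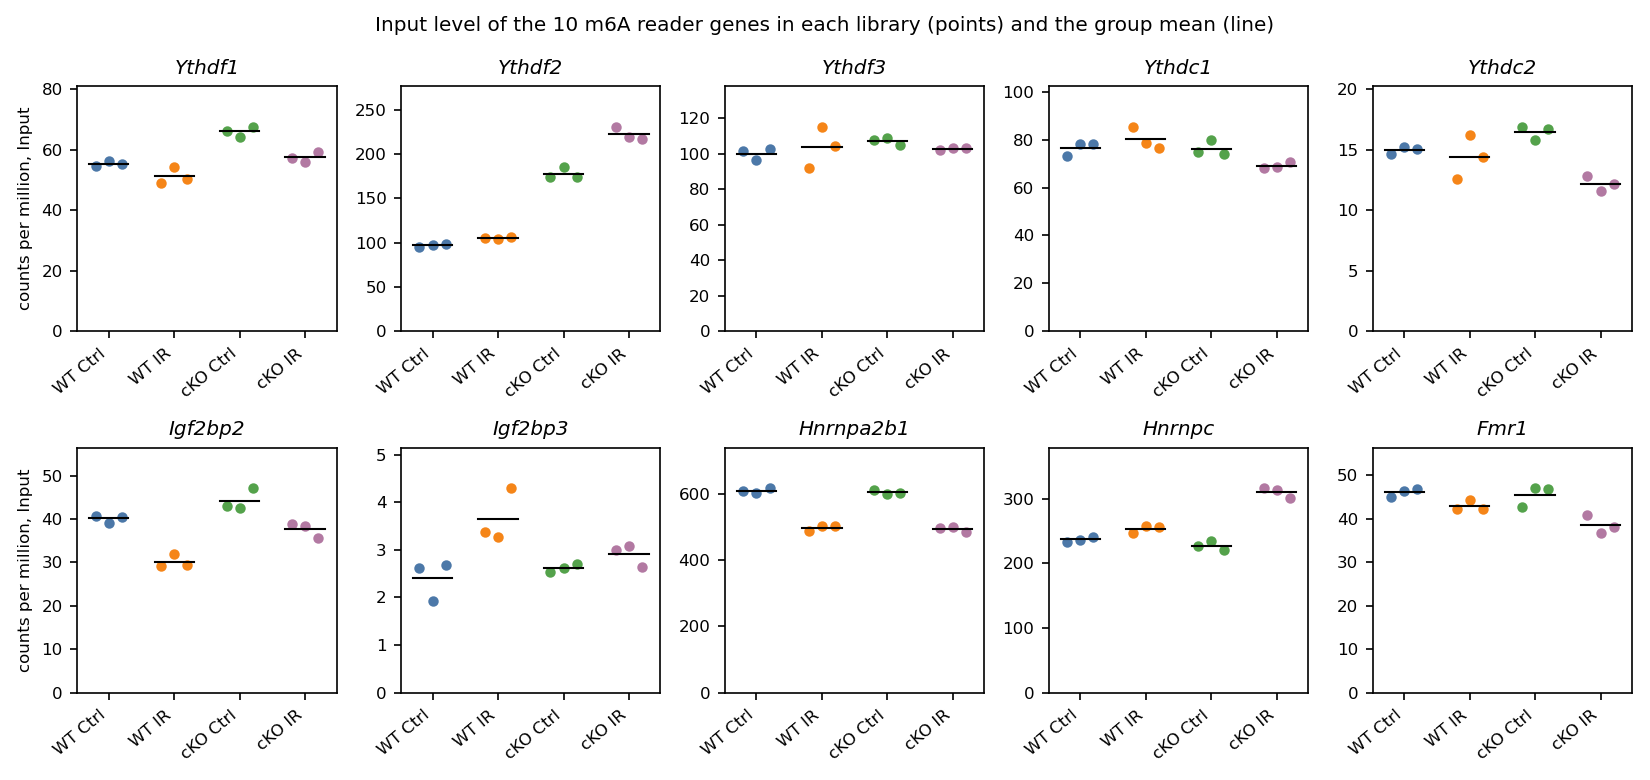
Input level of each m6A reader gene in CPM (vertical axes, from 0) in the 12 Input libraries, grouped by condition label on the horizontal axes; points are libraries and lines are group means. Ythdf2 sits between 95.6 and 106.7 CPM in the WT libraries and between 174.2 and 230.8 CPM in those labeled cKO, and Hnrnpa2b1 is lower in both irradiated groups.

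All 10 members passed the filter on low counts (10 or more in 3 or more libraries) and were tested in the Inputs among 16090 genes. Between WT IR and WT Ctrl, 5 of 10 were called by edgeR (adjusted p under 0.05), against 31.7% of all genes: 3 were higher and 2 lower, where 14.7% and 17.0% of all genes were. Between cKO IR and cKO Ctrl, 8 were called against 45.6%, with 2 higher (21.8% of all genes) and 6 lower (23.8%). The genotype labels separated fewer members in Ctrl, where 2 were called against 15.7%, both higher (8.05% of all genes) and none lower (7.61%; none by DESeq2 either, and none at an unadjusted p under 0.05). In IR, 7 were called between cKO IR and WT IR against 47.7%, with 4 higher (23.9%) and 3 lower (23.8%). The irradiation effect itself differed between the genotype labels for 4 members against 30.2%, with 2 more positive in cKO (15.0%) and 2 more negative (15.2%). These comparisons share libraries, since each group enters several of them, so they are not independent of each other. In bulk samples, fewer cells of a type and less RNA per cell cannot be told apart.

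**Figure D2:**
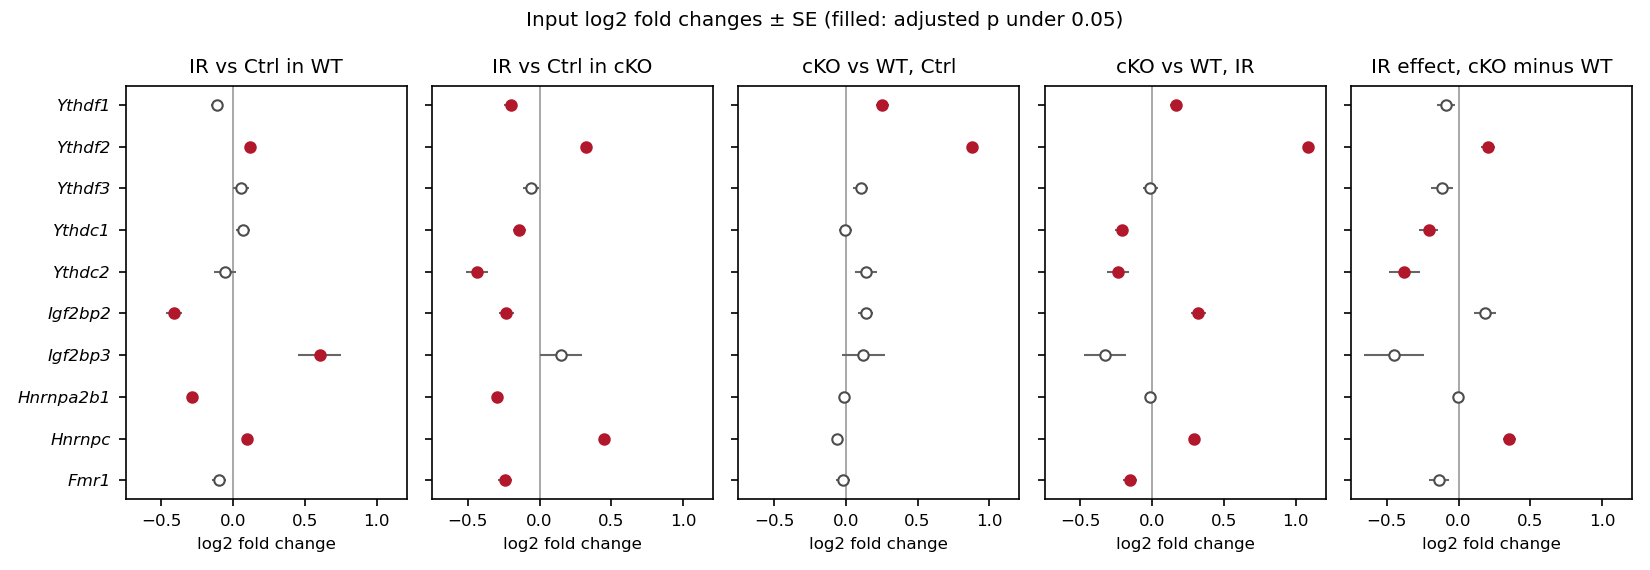
Log2 fold changes of the 10 m6A reader genes in the Inputs (horizontal axes) with SE bars for the 5 comparisons, 1 panel each; filled points have an edgeR adjusted p under 0.05. The genotype difference of Ythdf2, 0.88 in Ctrl and 1.08 in IR, lies farthest from 0, and Hnrnpa2b1 moves by −0.29 with irradiation in both genotypes.

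Ythdf2 (ENSMUSG00000040025.17; chr4:132184912-132212303 of GRCm38, minus strand), whose product recruits a deadenylase complex to m6A transcripts, was at 95.6, 96.8 and 98.1 CPM in the WT Ctrl Inputs and at 104.7, 103.7 and 106.7 CPM in the WT IR Inputs. In the Inputs labeled cKO it was at 174.2, 184.9 and 174.6 CPM in Ctrl and at 230.8, 219.9 and 217.1 CPM in IR. The 4 groups thus did not overlap, and the gene counts were higher, not lower, in the libraries labeled cKO. The genotype difference was 1.84-fold in Ctrl (log2 0.88, SE 0.04, edgeR adjusted p 6e-13) and 2.12-fold in IR (log2 1.08, SE 0.04, edgeR adjusted p 1.6e-14). A count over the whole gene cannot show whether the floxed part of the transcript was lost, and the files hold no counts per exon, so this gene does not check the label. Irradiation raised Ythdf2 by 0.12 in WT (SE 0.04, edgeR adjusted p 0.017) and by 0.32 in the libraries labeled cKO (SE 0.04, edgeR adjusted p 2.2e-07), a difference of 0.21 (SE 0.05, edgeR adjusted p 0.0036). The rise in WT was not called without WT Ctrl replicate 1 (log2 0.11, edgeR adjusted p 0.067), without WT IR replicate 3 (log2 0.11, edgeR adjusted p 0.065) or with only the 6 libraries compared (log2 0.12, edgeR adjusted p 0.054).

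Ythdf1 (ENSMUSG00000038848.14; chr2:180904377-180920949, minus strand), a paralog also linked to translation of m6A transcripts, was at 54.4, 56.2 and 55.2 CPM in WT Ctrl and at 66.2, 64.2 and 67.5 CPM in the Inputs labeled cKO Ctrl. All 3 libraries labeled cKO were above all 3 WT libraries, with a log2 difference of 0.26 (0.255, SE 0.04, edgeR adjusted p 0.00031). In IR the levels were 49.0, 54.2 and 50.1 CPM in WT and 57.3, 55.7 and 59.1 CPM in cKO, again without overlap (log2 0.17, SE 0.04, edgeR adjusted p 0.0039). Irradiation lowered Ythdf1 by a log2 difference of −0.20 in the libraries labeled cKO (SE 0.04, edgeR adjusted p 0.00074). In WT the value was −0.11 (SE 0.04, edgeR adjusted p 0.058), and the irradiation effects were not shown to differ (edgeR adjusted p 0.33).

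Ythdf3 (ENSMUSG00000047213.14; chr3:16183212-16217037, plus strand), the third paralog, was at 96.1 to 102.4 CPM in WT Ctrl, 91.9 to 115.0 CPM in WT IR, 105.0 to 109.0 CPM in cKO Ctrl and 101.9 to 103.3 CPM in cKO IR. It passed the test in none of the 5 Input comparisons with all libraries, and its log2 fold changes ran from −0.12 to 0.10. The WT IR libraries spread most. Without WT IR replicate 1, at 91.9 CPM, edgeR called it higher in WT after irradiation (log2 0.13, adjusted p 0.007), lower in cKO IR relative to WT IR (log2 −0.09, adjusted p 0.049) and different in the irradiation effect (log2 −0.20, adjusted p 0.0037). With only the 6 Ctrl Inputs it was also called higher in cKO Ctrl than in WT Ctrl (log2 0.10, edgeR adjusted p 0.012). Summed per kb over the 3 YTHDF paralogs, Ythdf2 made up 37.2 to 37.8% in WT Ctrl, 37.5 to 41.8% in WT IR, 48.8 to 50.5% in cKO Ctrl and 56.2 to 58.2% in cKO IR. Its share overlapped between the WT groups and not between any others.

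Ythdc1 (ENSMUSG00000035851.14; chr5:86804221-86836659, plus strand), the nuclear reader, was at 73.0, 78.1 and 78.3 CPM in WT Ctrl, 85.4, 78.5 and 76.7 CPM in WT IR, 74.8, 80.0 and 73.9 CPM in cKO Ctrl and 68.2, 68.6 and 70.6 CPM in cKO IR. The 3 libraries labeled cKO IR were below all others. Irradiation lowered it in the libraries labeled cKO (log2 −0.14, SE 0.05, edgeR adjusted p 0.017), whereas the WT value was 0.07 (SE 0.05, edgeR adjusted p 0.29), and the effects differed by −0.21 (SE 0.07, edgeR adjusted p 0.019). The call of that difference was lost without WT Ctrl replicate 1 (edgeR adjusted p 0.064) or without cKO Ctrl replicate 2 (edgeR adjusted p 0.068), and the fall labeled cKO was lost without cKO Ctrl replicate 2 (adjusted p 0.11), cKO IR replicate 1 (0.057) or cKO IR replicate 2 (0.054). Between cKO IR and WT IR it was lower by a log2 difference of −0.21 (SE 0.05, edgeR adjusted p 0.00068).

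Ythdc2 (ENSMUSG00000034653.11, on chromosome 18), the helicase, was at 14.6, 15.2 and 15.1 CPM in WT Ctrl, 12.6, 16.2 and 14.4 CPM in WT IR, 16.9, 15.8 and 16.7 CPM in cKO Ctrl and 12.8, 11.6 and 12.2 CPM in cKO IR. The fall between the groups labeled cKO Ctrl and cKO IR (log2 −0.43, SE 0.08, edgeR adjusted p 9.5e-05) was larger than the spread of either. In WT the 2 conditions overlapped (log2 −0.06, SE 0.08, edgeR adjusted p 0.64), and the irradiation effects differed by −0.38 (SE 0.11, edgeR adjusted p 0.012). It was lower in cKO IR than in WT IR (log2 −0.24, SE 0.08, edgeR adjusted p 0.016), but the ranges overlapped, and the call was lost without WT IR replicate 2 (log2 −0.15, adjusted p 0.12), without cKO IR replicate 2 (adjusted p 0.074) or with only the 6 libraries compared (adjusted p 0.057).

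Igf2bp2 (ENSMUSG00000033581.17; chr16:22059009-22163299, minus strand), which stabilizes bound transcripts, fell with irradiation in both genotypes. It went from 40.8, 39.2 and 40.5 CPM in WT Ctrl to 29.1, 31.9 and 29.4 CPM in WT IR (log2 −0.41, SE 0.05, edgeR adjusted p 4.1e-06). In the Inputs labeled cKO it went from 42.9, 42.6 and 47.1 CPM to 38.7, 38.4 and 35.7 CPM (log2 −0.23, SE 0.05, edgeR adjusted p 0.0011). Control and irradiated libraries did not overlap in either genotype. The irradiated groups differed, with higher levels in cKO IR than in WT IR (log2 0.32, SE 0.05, edgeR adjusted p 4.6e-05), while the difference of the irradiation effects was 0.18 (SE 0.08, edgeR adjusted p 0.075). That difference was called without WT IR replicate 2 (0.23, adjusted p 0.021), cKO Ctrl replicate 3 (0.23, adjusted p 0.031) or cKO IR replicate 3 (0.22, adjusted p 0.044). Between the 6 Ctrl Inputs fitted alone, Igf2bp2 was called higher in cKO Ctrl (log2 0.14, adjusted p 0.017), which it was not in the fit of 12 (adjusted p 0.083).

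Igf2bp3 (ENSMUSG00000029814.10; chr6:49085223-49214957, minus strand), an oncofetal paralog, was the rarest member, with 147 to 293 counts per Input library. Its counts were 189, 147 and 200 in WT Ctrl and 217, 218 and 293 in WT IR, and all 3 irradiated libraries were above the controls in CPM (log2 0.60, SE 0.15, edgeR adjusted p 0.0035). In the Inputs labeled cKO the counts were 181, 221 and 205 in Ctrl and 217, 219 and 176 in IR, which overlapped in CPM (log2 0.15, SE 0.15, edgeR adjusted p 0.44). The difference of the effects, −0.45, did not pass the test (SE 0.21, edgeR adjusted p 0.12). The IGF2BP paralogs thus had opposite signs under irradiation in WT, where both passed.

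Hnrnpa2b1 (ENSMUSG00000004980.16; chr6:51460932-51469894, minus strand), the most abundant member and a nuclear reader of m6A in microRNA precursors, fell from 607.5, 604.1 and 616.8 CPM to 488.9, 502.7 and 503.7 CPM with irradiation in WT. In the Inputs labeled cKO it fell from 613.2, 598.9 and 602.3 CPM to 496.2, 498.8 and 485.7 CPM. The falls were nearly equal, at log2 −0.29 in WT (SE 0.03, edgeR adjusted p 6.2e-08) and −0.29 in cKO (SE 0.03, edgeR adjusted p 2.8e-08), and the genotype labels overlapped in each condition. Hnrnpc (ENSMUSG00000060373.15; chr14:52073377-52104028, minus strand), which binds uridine tracts exposed by m6A, moved the other way. It was at 233.8, 236.8 and 240.9 CPM in WT Ctrl, 246.9, 258.4 and 255.9 CPM in WT IR, 226.3, 234.5 and 220.2 CPM in cKO Ctrl and 316.3, 313.8 and 301.5 CPM in cKO IR. The highest group was the one labeled cKO IR, which overlapped no other.

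Hnrnpc rose between cKO Ctrl and cKO IR by a log2 difference of 0.45 (SE 0.03, edgeR adjusted p 1e-09) and by 0.10 in WT (SE 0.03, edgeR adjusted p 0.031). The irradiation effects differed by 0.355 (SE 0.05, edgeR adjusted p 9.9e-06). The small rise in WT was not called without a count filter (adjusted p 0.089), with only the 6 libraries compared (0.086), or without WT Ctrl replicate 1 (0.11), WT Ctrl replicate 2 (0.08), WT IR replicate 2 (0.068) or WT IR replicate 3 (0.088). Fmr1 (ENSMUSG00000000838.17; chrX:68678541-68717963, plus strand), the translational repressor, was at 45.1 to 46.8 CPM in WT Ctrl, 42.2 to 44.4 CPM in WT IR, 42.8 to 47.0 CPM in cKO Ctrl and 36.7 to 40.9 CPM in cKO IR. It was lower after irradiation in the libraries labeled cKO (log2 −0.24, SE 0.05, edgeR adjusted p 0.00053) and gave −0.10 in WT (SE 0.05, edgeR adjusted p 0.14). Between cKO IR and WT IR it was lower by −0.16 (SE 0.05, edgeR adjusted p 0.015), a call lost without cKO IR replicate 2 (adjusted p 0.089).

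Markers of the sorted populations moved with the same groups. All 7 neutrophil genes were present in every Input group, and their summed level was 1910 to 2010 CPM in WT Ctrl, 625 to 670 CPM in WT IR, 929 to 954 CPM in cKO Ctrl and 558 to 564 CPM in cKO IR. The 7 proliferation genes, none at 0, summed to 665 to 683, 317 to 323, 592 to 608 and 335 to 338 CPM in the same order, so both sums were lower in the irradiated groups. Monocyte and macrophage genes (7, none at 0) summed to 1520 to 1560, 1240 to 1310, 2020 to 2030 and 1700 to 1720 CPM and were higher in the groups labeled cKO. In the neutrophil sum, S100a9 and S100a8 were the largest parts in WT Ctrl (group means of 1030 and 407 CPM). In cKO IR the largest part was Mmp8 (254 CPM). Between the Ctrl groups, 6 of the 7 neutrophil genes were lower in cKO Ctrl (7.61% of all genes). Csf3r was higher there (log2 0.14, edgeR adjusted p 0.013). Mmp8 and, of the proliferation genes, Pcna were not called with irradiation in cKO (log2 −0.05 and 0.01, edgeR adjusted p 0.18 and 0.83). The summed level of 6 dendritic cell genes was 836 to 878 CPM in WT Ctrl and 1280 to 1430 CPM in WT IR, and 904 to 920 CPM in cKO Ctrl and 1400 to 1430 CPM in cKO IR, most of it from Ccl22 (group means of 818, 1300, 869 and 1360 CPM in this order). Xcr1, Cd209a and Siglech, which mark dendritic cell subsets, were at most at 0.159 CPM in these groups and all 3 at 0 in WT IR. The 5 erythroid genes reached 27.4 to 29.9 CPM in WT IR and at most 0.0668 CPM in the other Inputs, where 2 of them were at 0 in cKO Ctrl and 2 in cKO IR. The part of these cells in the changes of the reader transcripts was not tested.

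Genes that make, remove or act on m6A were examined beside the readers. Of 11 writer and eraser genes, 2 were higher and none lower after irradiation in WT, beside 14.7% and 17.0% of all genes. In cKO IR, 1 was higher and 8 lower than in cKO Ctrl, beside 21.8% and 23.8% of all genes. The medians were −0.01 in WT and −0.19 in cKO, beside 0.01 in each for all genes tested (log2). The 8 included the writer subunits Zc3h13 (log2 −0.45, SE 0.06, edgeR adjusted p 1.4e-06) and Rbm15 (log2 −0.30, SE 0.05, edgeR adjusted p 7.8e-05) and the demethylase Alkbh5 (log2 −0.34, SE 0.04, edgeR adjusted p 1.7e-07). In WT, Rbm15 was instead higher after irradiation (log2 0.19, SE 0.05, edgeR adjusted p 0.0092), and its effects differed by −0.49 (SE 0.07, edgeR adjusted p 4.1e-05). Wtap, the subunit that brings the methyltransferase to nuclear speckles, was the only one of the 11 called between the Ctrl groups, higher in cKO Ctrl (log2 0.19, SE 0.04, edgeR adjusted p 0.0011). Of all genes, 15.7% were called between these groups.

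Among 9 further m6A-binding genes, 2 were higher and 2 lower with irradiation in WT, and 1 higher and 6 lower in the libraries labeled cKO. Over all genes, 14.7% were higher and 17.0% lower in WT and 21.8% and 23.8% in cKO, and the medians of the 9 were −0.09 and −0.12 (log2). Prrc2a, which encodes another m6A-binding protein, fell most in cKO (log2 −0.67, SE 0.04, edgeR adjusted p 7.4e-12), followed by the initiation factor subunit Eif3a (log2 −0.40, SE 0.04, edgeR adjusted p 3.4e-07). Igf2bp1, the third IGF2BP paralog, was higher in irradiated WT cells (log2 1.09, SE 0.33, edgeR adjusted p 0.014), with the same sign as Igf2bp3 there. Of 9 genes for proteins that act with the readers, 2 were higher and 2 lower in WT and 3 higher and 3 lower in cKO (medians 0.00 and −0.09), beside 31.7% and 45.6% of all genes called. Rida, whose product bridges YTHDF2 to an endonuclease, rose in both (log2 0.34, SE 0.09, edgeR adjusted p 0.0042 in WT and log2 0.78, SE 0.09, edgeR adjusted p 2.8e-07 in cKO). Cnot1, the scaffold of the deadenylase complex that YTHDF2 recruits, was lower in cKO IR than in cKO Ctrl (log2 −0.32, SE 0.04, edgeR adjusted p 1.1e-06) and than in WT IR (log2 −0.49, SE 0.04, edgeR adjusted p 2.6e-09).

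The m6A antibody enriched some reader transcripts and depleted others. In WT Ctrl, 6 of 10 members were higher in IP than in Input, as were 38.1% of the 17373 genes tested, and 4 were lower (37.5%). In cKO Ctrl, 5 were higher (37.8%) and 4 lower (36.0%). In the groups labeled WT IR and cKO IR, 5 and 4 were higher (37.0% and 36.9%) and 5 and 6 lower (36.5% and 36.9%). In these groups the IP and Input libraries of 1 label had opposite Lyz2 levels, so no genotype is read from their ratios. Most genes differed between IP and Input, which are 2 kinds of library. The values set each transcript against the average transcript of the library and are not fractions of methylated molecules. Input and IP levels were scaled in separate fits, so the ratios come from the fit of all 24 libraries.

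Ythdf2 had the highest log2 IP over Input of the 10 in WT Ctrl, 0.997 (SE 0.04, edgeR adjusted p 9.7e-22), with Hnrnpa2b1 at 0.96 and Ythdc1 at 0.86 (0.855). In cKO Ctrl the Ythdf2 value was −0.07 (SE 0.04, edgeR adjusted p 0.08), which RLE size factors moved to −0.11 (adjusted p 0.0081). Its IP levels were 213.1, 210.4 and 202.3 CPM in WT Ctrl and 193.7, 178.0 and 179.2 CPM in cKO Ctrl, so the IP libraries differed less than the Inputs did and in the other direction. The difference between cKO Ctrl and WT Ctrl in IP over Input was −1.07 (SE 0.05, edgeR adjusted p 1.4e-16). In the groups labeled IR, Ythdf2 was at 0.48 in WT IR and −0.33 in cKO IR, from IP levels of 154.1, 150.8 and 168.0 CPM and of 187.9, 196.5 and 189.0 CPM. Each of these ratios divides by the Inputs of its own label, which differ 2.12-fold between the labels, while the Lyz2 of the IP libraries was that of the other label.

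The difference between the Ctrl groups was called for 4 members against 22.6% of all genes. Hnrnpc was the 1 that was higher in cKO Ctrl (10.1% of all genes; 0.18, SE 0.04, edgeR adjusted p 0.0017), and 3 were lower (12.5%). Besides Ythdf2, the lower ones were Igf2bp2 (−0.30, SE 0.09, edgeR adjusted p 0.019) and Ythdc1 (−0.18, SE 0.06, edgeR adjusted p 0.022). Both calls were lost without WT Ctrl IP replicate 1 (edgeR adjusted p 0.06 and 0.052) or without WT Ctrl IP replicate 2 (edgeR adjusted p 0.088 and 0.09). Igf2bp2 was also lost without cKO Ctrl Input replicate 3 (0.062) or cKO Ctrl IP replicate 2 (0.083), and Ythdc1 without WT Ctrl Input replicate 1 (0.086) or cKO Ctrl Input replicate 2 (0.093). In the fit of the 12 Ctrl libraries alone, the same 4 members were called.

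Igf2bp2 was depleted most in every group, at −2.30 in WT Ctrl and −2.60 in cKO Ctrl (SE 0.07 each, edgeR adjusted p 2.5e-25 and 1.1e-26), and at −1.17 and −1.75 in the groups labeled WT IR and cKO IR. Its IP levels were 9.18, 9.51 and 7.61 CPM in WT Ctrl, 8.17, 7.20 and 8.36 CPM in cKO Ctrl, 14.8, 14.3 and 14.2 CPM in the group labeled WT IR and 11.8 to 12.4 CPM in that labeled cKO IR. The irradiated IP libraries were thus above the Ctrl ones, while the Inputs had moved the other way. Ythdf3 and Hnrnpa2b1 were enriched in all 4 groups, at 0.57 to 0.75 and at 0.63 to 0.99, and Ythdc2, Igf2bp3 and Fmr1 were depleted in all 4, at −0.53 to −0.39, −0.83 to −0.36 and −0.46 to −0.19. Hnrnpc was enriched in both Ctrl groups (0.18 and 0.36) and depleted in both groups labeled IR (−0.29 and −0.54).

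**Figure D3:**
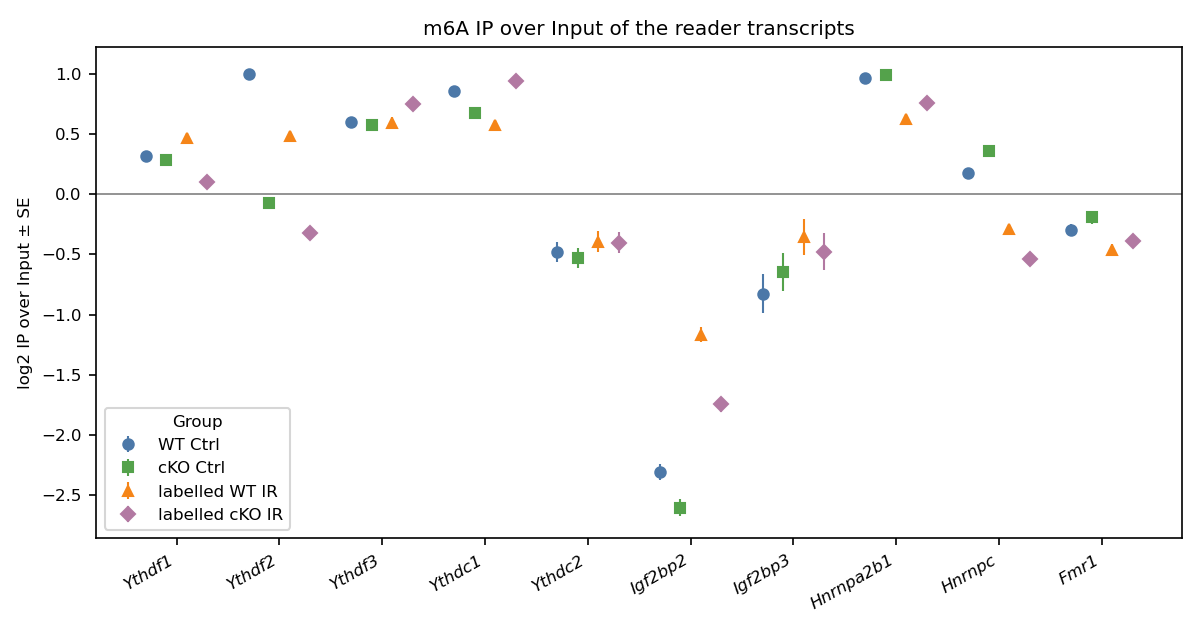
Log2 IP over Input with SE bars (vertical axis) for the 10 m6A reader genes (horizontal axis) in the 4 conditions, named by label. Ythdf2 goes from 0.997 in WT Ctrl to −0.07 in cKO Ctrl, and Igf2bp2 lies below −1.1 in every group.

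Peaks, called by the authors in each IP library, placed the signal along these transcripts. A consensus peak here was one found in all 3 libraries of a group on the gene's strand. Peaks of the 3 libraries had to overlap each other by at least 1 base. The summit, taken from the peak of highest fold, lay inside the gene. Such peaks lay over 5 of 10 members in WT Ctrl, 5 in the group labeled WT IR, 5 in cKO Ctrl and 4 in that labeled cKO IR, against 27.4%, 23.1%, 25.6% and 20.7% of the genes tested. Ythdf2, Ythdf3, Ythdc1 and Hnrnpa2b1 had them in all groups. Ythdf1 had 1 in WT Ctrl and 1 in the group labeled WT IR, in coding exon 5, with peak-caller folds of 1.89 to 2.64 and 2.09 to 2.32, and Hnrnpc had 1 in cKO Ctrl at 1.43 to 1.44. In cKO Ctrl each library had 2 Ythdf1 peaks, with highest folds of 2.17, 2.50 and 2.48, but without a consensus. Ythdc2, Igf2bp2 and Igf2bp3 had no peak in any library, and Fmr1 had peaks in at most 2 of 3 libraries of a group, without a consensus. In 38 of the 50 member peaks the highest fold was below the median over all consensus peaks of the group, which was 4.09 to 4.26. With at least 4-fold enrichment in each library only 1, 2, 1 and 1 members kept a peak.

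The place of the peaks over Ythdf2 differed between groups. With its exons merged over isoforms and numbered from the 5′ end, exon 3 (132204132 to 132205715), which holds most of the coding sequence, carried summits in WT Ctrl (fold 2.29 to 4.02), in cKO Ctrl (2.27 to 3.41) and in the group labeled cKO IR (9.66, 15.07 and 12.18 in the 3 libraries). In the group labeled WT IR no summit lay there. That group instead had a summit in the 5′ UTR part of exon 1 (132211432 to 132212303) with folds of 16.53, 13.46 and 14.22, and 1 in the intron 42 bases before exon 2 with folds of 4.64 to 7.51. WT Ctrl and the group labeled WT IR both had summits in exon 4, at folds of 1.58 to 2.97 and 2.59 to 3.88, and the groups labeled cKO had no consensus peak there. The highest folds of the 4 groups were thus both in irradiated IP libraries whose Lyz2 went against the label. Outside the consensus, a Ythdf2 peak of fold 8.165 was called in the unirradiated cKO Ctrl IP replicate 2. Which Input served as control for each of these calls is not given in the sources used here.

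**Figure D4:**
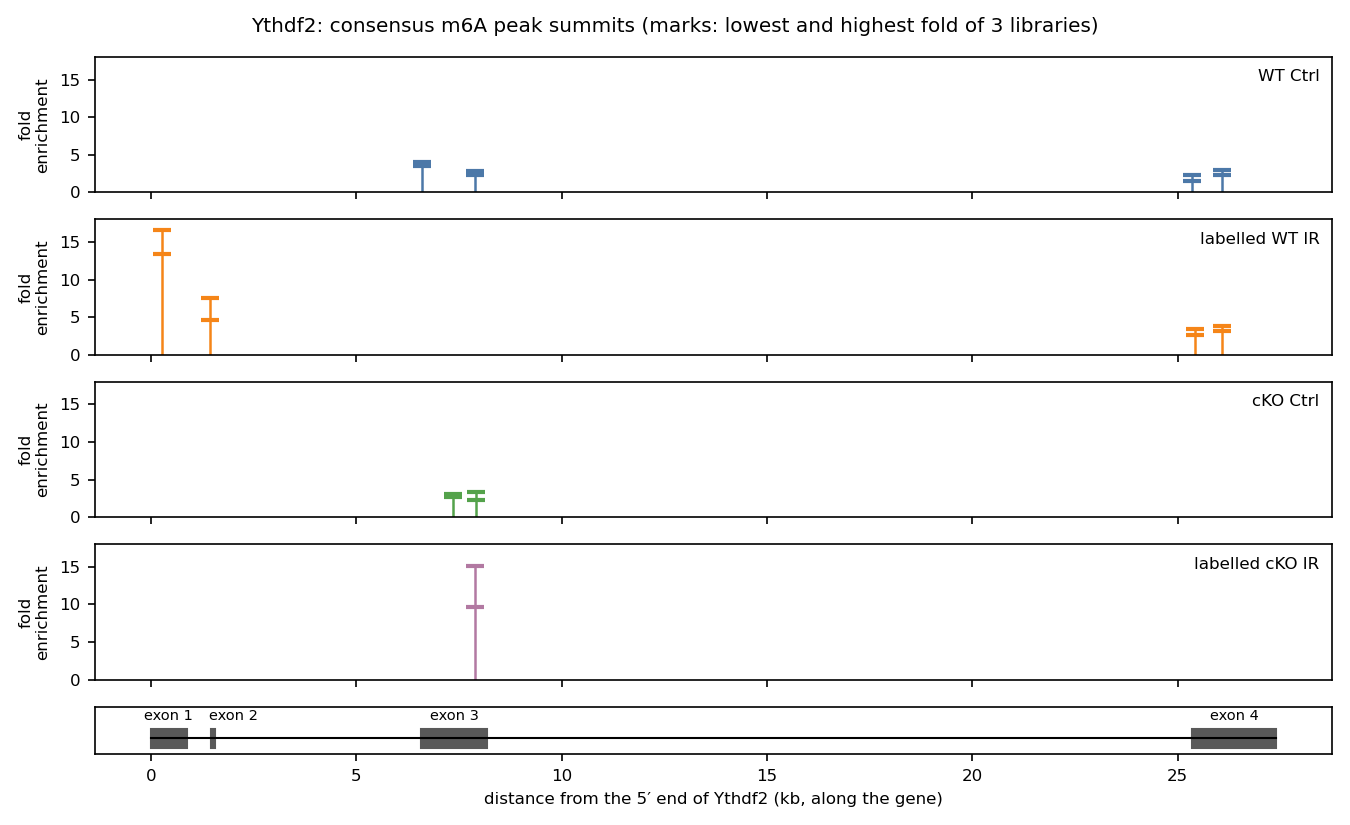
Consensus m6A peaks over Ythdf2: distance of the summit from the 5′ end of the gene in kb (horizontal axis) and the authors' fold enrichment (vertical axes, from 0), 1 panel per condition label, with marks at the lowest and highest of 3 libraries and merged exons drawn to scale at the bottom. Exon 3 holds summits in 3 groups, and the group labeled WT IR has its highest summit in exon 1.

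Several other peaks had their summits at nearly the same place in all 4 groups. Ythdf3 had a 5′ UTR summit in exon 1 in all 4 groups (folds of 3.79 to 6.67) and a coding summit in exon 7 near position 16204590 (2.24 to 2.67). Hnrnpa2b1 had a summit in exon 9, in its 3′ UTR, in all 4 groups (2.96 to 4.70). Ythdc1 had a summit in its 5′ UTR in all 4 (2.08 to 3.13) and 1 in coding exon 5 (1.56 to 2.01). It also had a summit in exon 12 outside the coding sequence in WT Ctrl (3.51 to 5.13) and in the group labeled cKO IR (2.40 to 4.36). Some summits differed between groups, but each is that of the 1 library with the highest fold, so a shift of the group was not tested. A Ythdc1 peak found in all 4 had its summit at 86816510, in coding exon 4, in cKO Ctrl and at 86816460 to 86816462, just before that exon, in the others. A further Ythdf3 peak in exon 7 had its summit at 16205067 in both Ctrl groups and at 16204796 in the group labeled cKO IR. Its extent was nearly the same, from 16204774 to 16205340 in WT Ctrl and from 16204766 to 16205336 in the group labeled cKO IR. An intronic Ythdc1 peak had its summit at 86822762 in cKO Ctrl and at 86822582 in the group labeled cKO IR.

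The stretches below show letters near some of the summits that recurred. The antibody's target is an adenosine, and m6A is known for a short consensus around it. The core GGACT was searched with 3 relatives (GAACT as the first, AGACT as the second and AAACT as the third) on the transcript strand of the genome, 50 bases to each side of a summit. GGACT was in 7 of the 50 member windows, of which several are the same place in different groups, and any of the 4 in 21. Over all consensus peaks, GGACT was in 11.2 to 12.1% of windows and any of the 4 in 38.0 to 39.3%. The members' windows were thus close to those of other peaks. Each stretch is 29 bases of GRCm38 from RefSeq, 5′ to 3′ on the transcript strand, with the motif in capitals. Under a summit here means within 50 bases of it, so a stretch need not contain the summit.
Ythdf2 exon 3, coding, chr4:132204401-132204429, minus strand, under the summits of WT Ctrl, cKO Ctrl and the group labeled cKO IR: gaaatctgctgtGGACTacaacacatgtg
Ythdf2 exon 4, 3′ UTR, chr4:132186203-132186231, minus strand, WT Ctrl and the group labeled WT IR: gaacagtgataaAAACTtgttttcagaaa
Ythdf3 exon 7, coding, chr3:16204571-16204599, plus strand, all 4 groups: ttctgcctcctcAAACTataatccagcag
Ythdc1 exon 12, non-coding, chr5:86828842-86828870, plus strand, WT Ctrl and the group labeled cKO IR: ggcagtacctgtGGACTtaaagtgttttt
Hnrnpa2b1 exon 9, 3′ UTR, chr6:51461269-51461297, minus strand, all 4 groups: ttttctgatttaAAACTtcatttagtaca
The exon 1 summit of Ythdf2 in the group labeled WT IR and the 5′ UTR summit of Ythdf3 had none of the 4 motifs in their windows, which says only that these letters are not there. Not shown above is a further exon 4 stretch of Ythdf2 with AGACT, chr4:132186892-132186920, near summits of WT Ctrl and the group labeled WT IR. The window of the latter also held GGACT. A match marks letters under a peak and not a methylated base.

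Over the 12 Inputs, the genes whose log2 CPM followed Ythdf2 most closely were Il1b (Pearson r 0.992), Serpinb2 (0.990), Saa3 (0.984), Ptx3 (0.982) and Il20rb (0.979). Il1b, an inflammatory cytokine gene, was at group means of 138.6 CPM in WT Ctrl, 136.7 CPM in WT IR, 231.6 CPM in cKO Ctrl and 289.5 CPM in cKO IR. Saa3, an acute-phase gene, was at 159.7, 152.4, 368.9 and 689.3 CPM in the same order. The named genes thus shared with Ythdf2 higher means under the cKO label, in Ctrl and in IR. From WT Ctrl to WT IR, Il1b and Saa3 had slightly lower means, while Serpinb2, Ptx3, Il20rb and Ythdf2 had higher ones. The 12 libraries form 4 groups and give r values that follow group differences. Among the members, r with Ythdf2 ran from −0.67 for Ythdc1 to 0.59 for Ythdf1.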

How the data were processed

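The deposited values are raw gene counts, which the authors made with HTSeq on GENCODE (release M19) after Trimmomatic 0.39 and a strand-specific HISAT alignment to mm10. Counts of reads that share near-identical gene copies follow HTSeq. The authors called peaks per IP library and strand with MACS2, and the deposited lists give the fold enrichment (a ratio at the summit), the −log10 p and q values and an integer score. The fold was used to describe peaks. The score and the −log10 values were not compared.

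Here, counts of genes with 10 or more counts in 3 or more libraries entered edgeR 4.0.16 under R 4.3.3 (quasi-likelihood test, TMM, Benjamini-Hochberg over all genes, threshold 0.05), with 1 fit of the 12 Inputs (16090 genes) and 1 of all 24 libraries (17373 genes). The scripts were tested on simulated data. DESeq2 1.42.0, RLE size factors, other count filters, a replicate block, subsets of libraries and each replicate left out served as alternatives. Symbols, positions and exons came from GENCODE release M21 on GRCm38 (54409 of 54446 identifiers matched), and lines that name no gene (4.1 to 6.8% and 2.97 to 3.73% outside genes in Input and IP) were left out of library sizes. The members were defined by function, not by values, but they, the lists of related genes and the named genes (list genes with the largest called changes, and the 5 most like Ythdf2) were chosen with earlier results of these data known. Labels gave the groups, and no batch.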

Additional observations from a re-analysis of the deposited data

Results flagged for a closer look

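The irradiation effect in the Inputs differed between the genotype labels for 4 reader genes, by the interaction test of edgeR. The difference, cKO minus WT on the log2 scale, was 0.21 for Ythdf2 (edgeR adjusted p 0.0036), 0.35 for Hnrnpc (edgeR adjusted p 9.9e-06), −0.21 for Ythdc1 (edgeR adjusted p 0.019) and −0.38 for Ythdc2 (edgeR adjusted p 0.012). Hnrnpc and Ythdf2 rose with irradiation under both labels, and Ythdc1 and Ythdc2 were called lower only under the cKO label. The small rises in WT (log2 0.10 and 0.12) were not called without some single libraries or with only the 6 libraries compared. The Ythdc1 difference and its fall under the cKO label also lost their calls without some single libraries. Summed neutrophil markers were at 1910 to 2010 CPM in WT Ctrl, 625 to 670 CPM in WT IR, 929 to 954 CPM in cKO Ctrl and 558 to 564 CPM in cKO IR, and their part was not tested. S100a9 and S100a8 were the largest parts of that sum in WT Ctrl, and Mmp8 in cKO IR. Single outlying libraries were not looked for, since all groups hold 3.

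The antibody enrichment differed between cKO Ctrl and WT Ctrl for 4 reader genes, by a test of the difference of IP over Input in edgeR. It was −1.07 for Ythdf2 (edgeR adjusted p 1.4e-16), −0.30 for Igf2bp2 (edgeR adjusted p 0.019), −0.18 for Ythdc1 (edgeR adjusted p 0.022) and 0.18 for Hnrnpc (edgeR adjusted p 0.0017). The calls of Igf2bp2 and Ythdc1 were each lost when any 1 of 4 libraries was left out (edgeR adjusted p 0.052 to 0.093). For Ythdf2 the Input level was higher in cKO Ctrl and the IP level lower.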

How the results depend on the processing

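Depth limited little except for Igf2bp3, with 147 to 293 counts per Input library. Of the 1330 values of single genes under the alternatives, 1254 kept their direction and side of the threshold, 38 lost the call, 19 gained one and 19 changed sign. With only the 6 libraries compared, members called went from 5 to 3 for irradiation in WT and from 2 to 4 for genotype in Ctrl, where calls over all genes went from 2520 to 3870. Leaving out 1 replicate gave 3 to 6 members for irradiation in WT, the lowest without WT Ctrl replicate 1 or WT IR replicate 3, and 2 to 4 for the Ctrl difference in IP over Input, the lowest without WT Ctrl IP replicate 1 or 2. Peaks of at least 4-fold lay over fewer members than the 5, 5, 5 and 4 of all consensus peaks, with 1 member in WT Ctrl, 2 in the group labeled WT IR, 1 in cKO Ctrl and 1 in that labeled cKO IR. No value called with all libraries changed sign. Among those not called, leaving out 1 library moved Ythdf3 between −0.026 and 0.134 for irradiation in WT, between −0.093 and 0.067 for cKO IR against WT IR, and between −0.066 and 0.003 for the Ctrl difference in IP over Input. It moved Ythdc2 between −0.147 and 0.031 for irradiation in WT and Hnrnpa2b1 between −0.018 and 0.008 for the difference of irradiation effects. For genotype in Ctrl it moved Ythdc1 between −0.041 and 0.018, Igf2bp3 between −0.019 and 0.205 and Fmr1 between −0.043 and 0.024. Without a count filter the signs also changed for Ythdc1 in that comparison (0.001), Ythdf3 in cKO IR against WT IR (0.001) and Hnrnpa2b1 in the difference of irradiation effects (0.004). The cause of these changes was not tested.

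With the replicate number as a block (replicate block), the members called were 5, 8, 2, 7 and 4 in the 5 Input comparisons and 10, 9, 4, 10 and 10 for IP over Input, as without it. Same-numbered libraries did not deviate together, with correlations of −0.35 to 0.13. Noise of single libraries can hide a pairing, so this does not settle whether the numbers pair libraries. The sources used here do not say, and the main fits did not pair them.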

Other observations

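The transcripts of the m6A writers and erasers were examined in the IP libraries too. In WT Ctrl, 8 of 11 were higher in IP than in Input and 1 lower, beside 38.1% and 37.5% of all genes. In cKO Ctrl, 9 were higher and 2 lower, beside 37.8% and 36.0% of all genes. The medians were 0.41 in WT Ctrl and 0.62 in cKO Ctrl (log2), beside 0.02 in each over all genes tested. Virma, the scaffold of the writer complex, had log2 values of 1.28 in WT Ctrl and 1.28 in cKO Ctrl (edgeR adjusted p 1.8e-28 each). Wtap had 1.16 and 1.12, and the demethylase gene Alkbh5 was depleted, at −1.06 and −1.05. Of 9 genes that act with the readers, 2 were higher and 6 lower in WT Ctrl, beside 38.1% and 37.5% of all genes. The lower ones included the exonuclease gene Xrn1 at −1.47 (edgeR adjusted p 9.1e-21) and Cnot1 at −1.05 (edgeR adjusted p 1.5e-23). Of the 9 further m6A-binding genes, 4 were higher and 5 lower in WT Ctrl, beside the same 38.1% and 37.5% of all genes. Rbmx was enriched at 1.05 (edgeR adjusted p 1.2e-19) while Fxr2 was depleted at −1.17 (edgeR adjusted p 1.1e-19).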
